A study of Mus musculus with 14 samples.

Results

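TAZ knockdown was compared with scramble short hairpin RNA (shRNA) in mouse embryonic fibroblasts (MEFs) under cardiac reprogramming on a stiff gel, using the 2 arrays of GHMT/shTAZ and the 2 arrays of GHMT/Scramble, 4 of the 14 arrays of the series. All of these cells carried retroviral Gata4, Hand2, Mef2c and Tbx5 (GHMT), were cultured on 126 kPa Matrigel-conjugated polyacrylamide hydrogel, and received a lentivirus with shRNA against TAZ or with scramble shRNA, so the controls also held GHMT and an shRNA virus. The 2 arrays of GHMT/shYAP, from the same gel with shRNA against YAP, served as the nearest comparison. RNA was collected 2 weeks after transduction from whole cultures, which hold reprogrammed and unreprogrammed cells together, and was hybridised to Clariom S Mouse arrays, with each array of a group coming from an independent biological sample. Genes were included by rule: a feature needed 1 gene symbol and a value in all 4 arrays, which held for 19518 of the 22206 features. A difference is the mean of the shTAZ arrays minus the mean of the scramble arrays on the log2 scale, so that 1 is 2-fold.

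TAZ, encoded by Wwtr1, and its paralog YAP, encoded by Yap1, are transcriptional coactivators that do not bind DNA themselves. They enter the nucleus on rigid substrates, join the TEAD transcription factors and raise genes of growth, adhesion and matrix, whereas the Hippo kinases LATS1 and LATS2 phosphorylate them and hold them in the cytoplasm. TEAD factors recognise the M-CAT motif, first described in muscle gene promoters. In fibroblasts that express GHMT, a part of the cells switches on genes of the cardiomyocyte, such as those of the sarcomere and of calcium cycling, and loses fibroblast genes.

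Each deposited value is a log2 ratio whose denominator is the scramble mean, so that mean is 0 for every gene and the values of scramble 1 and scramble 2 are mirror images. They carry no signal level, and genes near background could not be told from others. The spread of values over features was 0.444 and 0.455 (SD) in the shTAZ arrays and 0.201 in each scramble array. The scramble arrays were not alike: 494 features had a value in scramble 1 that exceeded scramble 2 by 2-fold or more, 77 had one that lay 2-fold or more below it, and the macrophage and leukocyte markers differed by a median of 2.26. For this reason each difference was also computed against scramble 1 and scramble 2 separately. The median difference over all 22122 features tested was 0.043. Of these features, 59.0% had a positive and 41.0% a negative difference, so counts of direction in the lists below are read beside these shares.

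Wwtr1, the target of the shRNA, was at -0.36 and -0.31 in the shTAZ arrays and at -0.25 and 0.25 in the scramble arrays. The groups did not overlap, but the shTAZ values lay only just under scramble 1, and the difference of -0.34 (limma SE 0.17, adjusted p = 0.43, n = 2 each) did not pass the test. Against scramble 1 it was -0.087 and against scramble 2 -0.58. The study itself reported lower TAZ expression with shTAZ from qRT-PCR and western blotting, and those values are not part of these arrays. In the shYAP arrays Wwtr1 was at 0.10 and 0.10, and the difference of shTAZ from shYAP was -0.44 (SE 0.17, adjusted p = 0.606 from limma). Yap1 was at 0.20 and 0.057 with shTAZ, 1 array above and 1 within the range of -0.11 and 0.11 with scramble, and at -0.89 and -0.88 with shYAP. Yap1 was thus low in the shYAP arrays only. Among the TEAD factors, Tead1 and Tead3 overlapped between shTAZ and scramble, whereas Tead2 (0.32) and Tead4 (0.42) lay above both scramble arrays without passing the test. Stk4, the Hippo kinase MST1, was lower (-0.41) and Amot, which binds YAP and TAZ, was higher (0.53), each without overlap and each short of the adjusted threshold. Of the 18 genes measured in the TAZ, YAP, TEAD and Hippo list, 10 had a positive and 8 a negative difference. This is near the 59.0% and 41.0% of all features.

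The reprogramming factors were read together with any viral transcript that the probes detect, which the values do not separate. Gata4 was at 0.20 and 0.20 with shTAZ and -0.078 and 0.078 with scramble, and Hand2 at 0.24 and 0.36 with shTAZ and -0.17 and 0.17 with scramble. Both lay above both scramble arrays, with differences of 0.20 and 0.30 from the scramble mean. Mef2c (-0.087) and Tbx5 (0.0022) differed by less than 0.1.

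**Figure D1:**
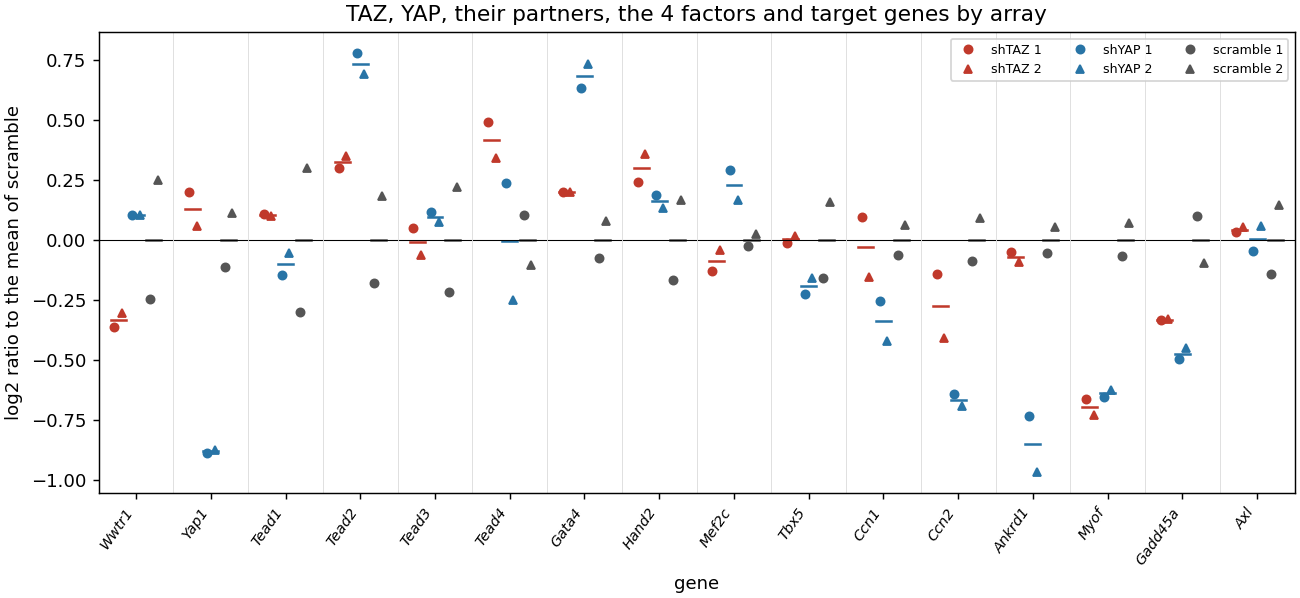
Log2 ratio to the mean of scramble (vertical axis) of Wwtr1, Yap1, the TEAD factors, the 4 reprogramming factors and 6 target genes (horizontal axis) in each array of shTAZ, shYAP and scramble, with circles for replicate 1, triangles for replicate 2 and lines for group means. Wwtr1 sits at -0.36 and -0.31 in the shTAZ arrays, and Yap1 at -0.89 and -0.88 in the shYAP arrays.

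Across all 22122 features tested, none passed an adjusted p of 0.05 in limma in either direction (0%), and the smallest adjusted p was 0.0568. At an unadjusted p under 0.05, 1921 features (8.68%) were higher and 1263 (5.71%) lower with shTAZ. By size, 57 features (0.258%) exceeded scramble by 2-fold or more between group means, and 432 (1.95%) lay 2-fold or more below it. When the shTAZ mean had to be 2-fold from each scramble array separately, 25 (0.113%) and 222 (1%) were left. In all of these the groups did not overlap, which that rule makes nearly certain unless the shTAZ arrays lie far apart. Groups without overlap were common in themselves, with 28.6% of all features higher in both shTAZ arrays than in both scramble arrays and 17.9% lower. The 2 directions differed in how far they rested on the scramble arrays. Of the 432 features that were 2-fold lower, 358 had scramble 1 at least 2-fold above scramble 2, and 68 had scramble arrays less than 2-fold apart. Of the 57 features that were 2-fold higher, 56 had scramble arrays less than 2-fold apart. With 2 arrays against 2, an exact permutation test of a single gene cannot go below p = 0.333, so only the limma fit, with 3 residual degrees of freedom, could reach the threshold. The count past the threshold turned on the scramble arrays: without scramble 1 it was 17 higher and 130 lower, and without scramble 2 it was 646 higher and 986 lower (limma), where the lone scramble array was assumed to vary like the other groups.

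**Figure D2:**
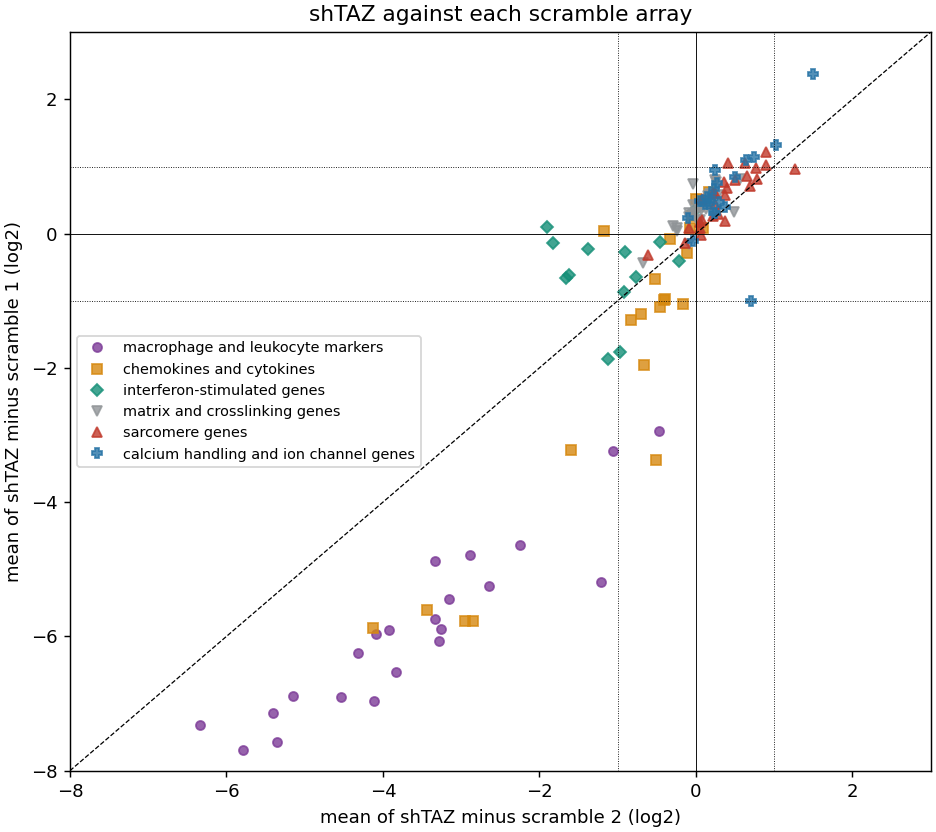
Mean of the shTAZ arrays minus scramble 2 (horizontal axis, log2) against the mean of the shTAZ arrays minus scramble 1 (vertical axis, log2) for the genes of 6 lists, with dotted lines at 2-fold and a dashed line where both are equal. Macrophage and leukocyte markers lie in the lower left, all below the dashed line, while sarcomere and calcium handling genes lie mostly in the upper right.

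The largest positive differences that held against each scramble array were in genes of diverse roles, several of them of heart muscle. These genes were picked with both shTAZ arrays above both scramble arrays, so that separation is part of the rule. In these bulk samples, fewer cells of a type and less RNA per cell cannot be told apart. Cxcl13, a chemokine that attracts B cells, was at 1.63 and 3.03 with shTAZ and -0.71 and 0.71 with scramble. Its difference of 2.33 was the largest of the higher genes, but its arrays were far apart within each group (adjusted p = 0.208 from limma). Uts2r, the receptor of the vasoactive peptide urotensin II, was at 1.77 and 2.32 with shTAZ and 0.016 and -0.016 with scramble, a difference of 2.05 (SE 0.22, adjusted p = 0.0738 from limma). Its scramble arrays were almost equal, and in the shYAP arrays it was at 0.96 and 0.49. Car3, a cytosolic carbonic anhydrase of muscle and fat, was at 1.82 and 1.57 with shTAZ and -0.044 and 0.044 with scramble (1.70, SE 0.12, adjusted p = 0.0568 from limma).

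Ppargc1a, the coactivator PGC-1alpha of mitochondrial genes, was at 1.44 and 1.44 with shTAZ and -0.31 and 0.31 with scramble. Corin, the protease that processes pro-atrial natriuretic peptide, was at 1.31 and 1.39 with shTAZ and -0.18 and 0.18 with scramble. Mb, the oxygen-binding myoglobin of heart and slow muscle, was at 1.03 and 1.30 with shTAZ and -0.064 and 0.064 with scramble. In each of these 3 genes both shTAZ arrays lay more than 2-fold above the scramble mean, and the adjusted p was 0.107 for Ppargc1a, 0.0853 for Corin and 0.0778 for Mb (limma). Dhrs7c, a dehydrogenase of the sarcoplasmic reticulum, had a difference of 1.33. The transporters Slc26a7 (1.68) and Slc38a5 (1.57), an anion and an amino acid transporter, were higher in both shTAZ arrays, as were the progestin receptor family member Paqr6 (1.36), the dipeptidase Dpep1 (1.33) and Pcolce2 (1.44), which aids the trimming of procollagen.

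The smallest p-values among higher genes belonged to Car3, Paqr6 and Vstm4, which shared the lowest adjusted p of 0.0568 with 6 lower genes. Vstm4 was at 1.10 and 1.29 with shTAZ and -0.034 and 0.034 with scramble. Camk1g, a calmodulin-dependent kinase, was at 1.06 and 0.97 with shTAZ and -0.012 and 0.012 with scramble, and Car14, a membrane-bound carbonic anhydrase, at 1.05 and 1.19 with shTAZ and -0.07 and 0.07 with scramble. The regulator of G protein signalling Rgs6 (1.02), Lratd2 (1.14) and the protease inhibitor Spint2 (0.86) completed the 10 smallest, together with Uts2r and Mb. Their scramble arrays were at most 0.19 apart, and ranking by p in itself favours genes with close replicates.

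Sarcomere genes, which encode the contractile filaments, were higher with shTAZ as a group in number and in median. Of 27 measured, 25 had a positive difference, 19 lay above both scramble arrays without overlap and 16 had an unadjusted p under 0.05, while 2 lay below both. Over all features, 28.6% lay above both scramble arrays and 8.68% were higher at that p. None passed the adjusted threshold. The median difference was 0.43, against 0.043 over all features, and it was 0.60 against scramble 1 and 0.36 against scramble 2. Nebl, the nebulette that anchors thin filaments at the Z-disc of heart muscle, was at 1.04 and 1.20 with shTAZ and 0.15 and -0.15 with scramble (1.12, SE 0.15, adjusted p = 0.0849 from limma). Myh6, the alpha myosin heavy chain of the adult mouse heart, was at 1.03 and 1.09 with shTAZ and -0.16 and 0.16 with scramble (1.06, SE 0.14, adjusted p = 0.0849 from limma). Both genes were a little over 2-fold above the scramble mean, and their shTAZ arrays lay well clear of the scramble arrays.

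Actc1, the cardiac actin, was at 0.95 and 0.97 with shTAZ and -0.062 and 0.062 with scramble. Tnni3, the cardiac troponin I that appears as the heart matures, was at 0.75 and 1.0 with shTAZ and -0.10 and 0.10 with scramble. Tnnt2, the cardiac troponin T used to score reprogrammed cells, was at 0.48 and 0.46 with shTAZ and -0.10 and 0.10 with scramble, a difference of 0.47 (SE 0.11, adjusted p = 0.166 from limma). All 3 genes lay above both scramble arrays. Genes of the Z-disc, M-band and thick filament followed. Myom2 of the M-band had a difference of 0.84, the Z-disc crosslinker Actn2 of 0.80, the fetal heavy chain Myh7 of 0.76, titin (Ttn) of 0.73 and Tcap of 0.29. Exceptions were Lmod2, which elongates thin filaments, at -0.50 and -0.42 with shTAZ and -0.15 and 0.15 with scramble, and the actin-binding Xirp1 (-0.14). Des, the muscle intermediate filament desmin, and Myl2 and Myl3, ventricular myosin light chains, overlapped with scramble.

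Beside these values, the shYAP arrays had a median of 0.88 and 0.85 over the same 27 genes, against 0.48 and 0.46 in the shTAZ arrays. Set directly against shYAP, with no scramble array in the difference, 22 of the 27 were lower with shTAZ, 17 of them without overlap. Over all features, 23.6% were lower with shTAZ than with shYAP without overlap and 20.6% higher. The median of shTAZ minus shYAP was -0.25. No sarcomere gene passed the adjusted threshold in that comparison, whose limma spread also draws on the scramble arrays. The macrophage markers described below were lower in the same shTAZ arrays (median -4.79 over 22 markers), and their part in the muscle gene values was not tested.

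**Figure D3:**
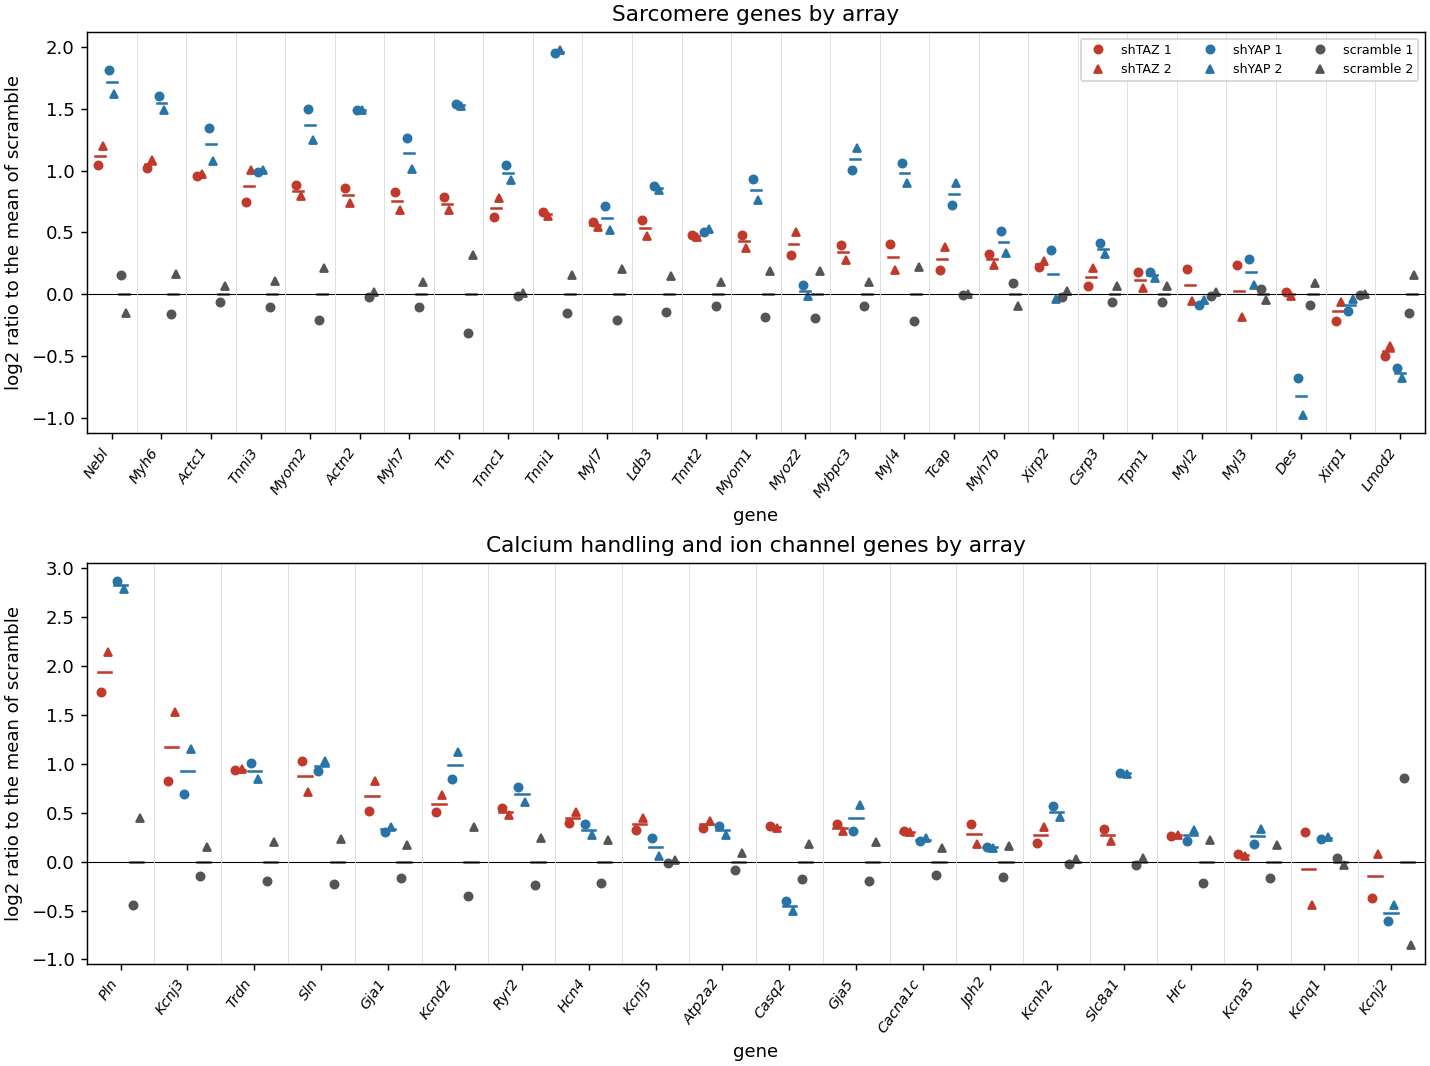
Log2 ratio to the mean of scramble (vertical axes) of sarcomere genes (upper panel) and of calcium handling and ion channel genes (lower panel) in each array of shTAZ, shYAP and scramble, ordered from the largest positive difference of shTAZ from scramble; circles are replicate 1, triangles replicate 2 and lines group means. In the upper panel 25 of 27 shTAZ means lie above 0, and in the lower panel 18 of 20.

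As TAZ acts through TEAD factors, the 250 bases before the annotated starts of these genes were searched for the core of the M-CAT motif, CATTCC, on both strands in RefSeq sequence of build GRCm38.p6. It was present at any listed start of 8 of 24 sarcomere genes with a start in the table (33.3%), of 6 of 15 YAP/TAZ target genes (40%) and of 13.3% of all tested genes with a listed start. Among smooth muscle and myofibroblast genes the share was 6 of 10 (60%), with a median difference of 0.17. Among calcium handling genes it was 1 of 16 (6.25%), with a median of 0.37. Whether the share goes with the size of the differences was not tested. The sarcomere genes with a match were Myh6, Myh7, Myl3, Myl7, Nebl, Tnnc1, Tnnt2 and Tpm1, with differences between 0.025 for Myl3 and 1.12 for Nebl. A set of 4 promoters is shown because they carry the match and belong to the 3 sarcomere genes with the largest differences among those 8 or, for Ccn1, to a well known TEAD target. Capitals mark the match on either strand. Myh6 lies at chr14:54966608-54966857 (minus strand), Myh7 at chr14:54994627-54994876 (minus strand, 1 of 2 listed starts), Nebl at chr2:17670166-17670415 (minus strand, 1 of 4 listed starts) and Ccn1 at chr3:145649986-145650235 (minus strand).
Myh6: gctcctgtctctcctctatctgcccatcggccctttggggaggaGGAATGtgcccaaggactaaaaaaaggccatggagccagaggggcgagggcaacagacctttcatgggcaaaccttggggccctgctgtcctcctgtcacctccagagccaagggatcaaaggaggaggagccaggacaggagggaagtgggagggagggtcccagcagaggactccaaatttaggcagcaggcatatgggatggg
Myh7: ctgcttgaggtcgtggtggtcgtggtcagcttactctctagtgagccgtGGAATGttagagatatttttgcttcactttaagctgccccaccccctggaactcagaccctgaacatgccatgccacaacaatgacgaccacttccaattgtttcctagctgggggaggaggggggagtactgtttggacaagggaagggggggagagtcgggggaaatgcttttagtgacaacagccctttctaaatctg
Nebl: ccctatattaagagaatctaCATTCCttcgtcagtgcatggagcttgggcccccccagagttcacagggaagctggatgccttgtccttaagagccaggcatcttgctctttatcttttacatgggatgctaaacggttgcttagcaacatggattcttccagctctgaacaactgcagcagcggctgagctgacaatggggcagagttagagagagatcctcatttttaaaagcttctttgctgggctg
Ccn1: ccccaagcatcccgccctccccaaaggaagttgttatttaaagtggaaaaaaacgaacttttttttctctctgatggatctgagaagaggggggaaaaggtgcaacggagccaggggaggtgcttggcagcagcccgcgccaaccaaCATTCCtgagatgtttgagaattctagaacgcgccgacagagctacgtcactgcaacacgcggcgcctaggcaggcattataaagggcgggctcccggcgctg
A match is a description of the letters and was not tested as a binding site. Myh6, Myh7 and Nebl had differences of 1.06, 0.76 and 1.12, whereas Ccn1 was at 0.10 and -0.16 with shTAZ and -0.062 and 0.062 with scramble and overlapped.

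Calcium handling and ion channel genes were likewise mostly higher with shTAZ. Of 20 measured, 18 had a positive difference, 17 lay above both scramble arrays and 14 had an unadjusted p under 0.05, with none lower without overlap, beside 28.6% and 8.68% of all features. The median difference was 0.37. Pln, phospholamban, the brake on the calcium pump of the sarcoplasmic reticulum, was at 1.73 and 2.14 with shTAZ and -0.44 and 0.44 with scramble, a difference of 1.94 (SE 0.29, adjusted p = 0.106 from limma). It was 5.2-fold above scramble 1 and 2.81-fold above scramble 2. Kcnj3, a subunit of the atrial acetylcholine-gated potassium channel, was at 0.82 and 1.52 with shTAZ and -0.15 and 0.15 with scramble. Trdn, triadin of the calcium release complex, was at 0.93 and 0.95 with shTAZ and -0.20 and 0.20 with scramble. Sln, sarcolipin, an atrial regulator of the same pump, had a difference of 0.87, the gap junction gene Gja1 of 0.67, the calcium release channel Ryr2 of 0.51 and the pump Atp2a2 of 0.38. The inward rectifier Kcnj2 had scramble arrays at 0.86 and -0.86 and overlapped, as did Kcna5 and Kcnq1.

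Of 12 cardiac transcription factors other than the GHMT factors, 11 had a positive difference and 8 lay above both scramble arrays, as did 28.6% of all features, with a median of 0.30. Myocd, myocardin, the coactivator of serum response factor, was at 0.91 and 0.55 with shTAZ and -0.094 and 0.094 with scramble. Smyd1, a muscle-restricted methyltransferase, was at 0.64 and 0.82 with shTAZ and -0.27 and 0.27 with scramble. Both were separated from scramble, with adjusted p-values of 0.14 for Myocd and 0.185 for Smyd1 (limma). Tbx20 (0.62), Tbx18 (0.65) and Hopx (0.45) were also above both scramble arrays, whereas Nkx2-5 (-0.091) overlapped. The natriuretic peptides went the other way from most heart genes. Nppa, which encodes atrial natriuretic peptide, was at -1.02 and -1.01 with shTAZ and 0.064 and -0.064 with scramble, a difference of -1.01 (SE 0.26, adjusted p = 0.188 from limma). Nppb, its B-type relative, was at -0.31 and -0.48 with shTAZ and 0.023 and -0.023 with scramble. Hence Nppa lay near 2-fold below the scramble mean and Corin, whose product cleaves its precursor, more than 2-fold above it.

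Macrophage and leukocyte markers gave the largest differences of the comparison. All 22 measured markers were lower in both shTAZ arrays than in both scramble arrays, where 17.9% of all features were, and 21 of 22 were at least 2-fold lower against each scramble array. All 22 had an unadjusted p under 0.05 and 0 passed the adjusted threshold. Their median difference was -4.79, and it was -5.93 against scramble 1 and -3.58 against scramble 2. The labels name the samples as MEFs only, and ratios do not show the level of any marker, so neither the fibroblast markers nor the macrophage markers could be ranked by abundance.

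Lyz2, macrophage lysozyme, was at -7.48 and -6.18 with shTAZ and 0.49 and -0.49 with scramble, a difference of -6.83 (SE 0.61, adjusted p = 0.0568 from limma), or 80.7-fold lower than the lower scramble array. Mrc1, the mannose receptor, was at -6.80 and -6.68 with shTAZ and 0.96 and -0.96 with scramble. Mpeg1, the pore-forming macrophage gene perforin-2, was at -6.74 and -6.19 with shTAZ and 1.11 and -1.11 with scramble. In all 3 the shTAZ arrays lay more than 5 log2 units under the lower scramble array. Spi1, the transcription factor PU.1 that specifies myeloid cells, was at -6.56 and -5.99 with shTAZ and 0.87 and -0.87 with scramble. Csf1r, the receptor through which CSF1 and IL-34 keep macrophages alive, was at -4.68 and -4.67 with shTAZ and 1.39 and -1.39 with scramble. Its ligands Csf1 (0.11) and Il34 (0.09) overlapped between the groups. The activating receptor subunit Fcer1g was at -6.59 and -5.44 with shTAZ and 0.87 and -0.87 with scramble, and the integrin Itgam, CD11b, at -5.62 and -5.83 with shTAZ and 1.18 and -1.18 with scramble. The markers with the smallest differences were Fcgr1 (-1.71) and Ptprc (-2.15), the pan-leukocyte antigen CD45. Against scramble 2 alone Fcgr1 was -0.47.

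Genes outside the marker list were also far lower, among them the inhibitory receptor Lilrb4a (-6.16), Ms4a6d (-5.72), the complement receptor C3ar1 (-5.41) and Cybb (-5.27), the catalytic subunit of the phagocyte oxidase. Of the 222 features 2-fold lower against each scramble array, 47 were over 16-fold lower between means. Markers of other leukocyte lineages, such as T cells, B cells and mast cells, were not lower with them. Of 12 measured, 0 were lower without overlap, beside 17.9% of all features, and the median was 0.11. The ratios carry no signal level, so markers at background, which cannot fall, could not be told from the others.

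In the shYAP arrays the median over the 22 macrophage markers was -2.19 and -3.69, against -4.93 and -4.72 in the shTAZ arrays. Set directly against shYAP, with no scramble array in the difference, 22 of 22 were lower with shTAZ, by a median of -1.66. Of these, 21 were lower without overlap, as were 23.6% of all features. Lyz2 was at -7.48 and -6.18 with shTAZ and -1.95 and -3.33 with shYAP (-4.19, SE 0.61, adjusted p = 0.158 from limma). The limma spread also draws on the scramble arrays, which lay apart in these genes. Mrc1 was at -6.80 and -6.68 with shTAZ and -1.28 and -4.83 with shYAP. Replicates of shYAP were far apart in these genes, while those of shTAZ were mostly close.

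**Figure D4:**
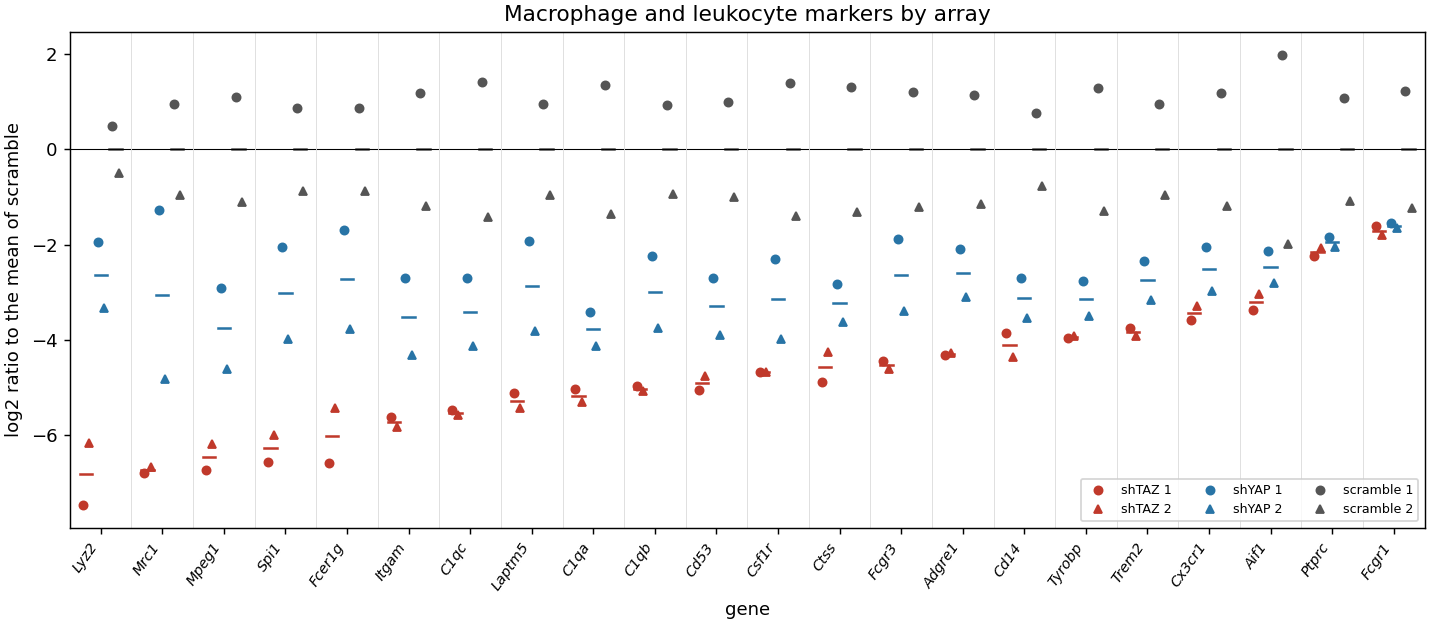
Log2 ratio to the mean of scramble (vertical axis) of 22 macrophage and leukocyte markers (horizontal axis) in each array of shTAZ, shYAP and scramble; circles are replicate 1, triangles replicate 2 and lines group means. Both shTAZ arrays lie below both scramble arrays for every marker, and scramble 1 lies above scramble 2 for every marker.

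PU.1 binds purine-rich sequences in myeloid promoters, and with Spi1 itself among the lowest genes the same 250 bases were searched for GAGGAAG on both strands. It was present in 7 of 16 macrophage markers with a listed start (43.8%), against 12% of tested genes. It was as frequent in 4 of 9 fibroblast markers (44.4%), and present in 5 of 15 YAP/TAZ target genes (33.3%). Neither binding at these matches nor a part of PU.1 in the differences was tested. The macrophage markers with a match were C1qc, Fcgr1, Fcgr3, Itgam, Laptm5, Mrc1 and Trem2. Of these, Itgam, at chr7:128062390-128062639 (plus strand), and Mrc1, at chr2:14229164-14229413 (plus strand), are shown as the markers with the lowest values that carry the motif, with the match in capitals.
Itgam: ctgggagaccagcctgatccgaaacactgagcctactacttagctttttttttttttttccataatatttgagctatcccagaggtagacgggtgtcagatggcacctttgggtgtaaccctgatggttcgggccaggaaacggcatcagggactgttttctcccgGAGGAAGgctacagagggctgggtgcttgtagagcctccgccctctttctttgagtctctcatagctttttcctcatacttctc
Mrc1: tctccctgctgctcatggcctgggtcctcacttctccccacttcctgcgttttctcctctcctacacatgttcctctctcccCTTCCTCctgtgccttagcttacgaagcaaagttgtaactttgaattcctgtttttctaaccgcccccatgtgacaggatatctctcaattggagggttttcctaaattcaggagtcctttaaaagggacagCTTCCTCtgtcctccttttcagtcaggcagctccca
The matches begin 84 bases before the start in Itgam, and 168 and 36 bases before it in Mrc1. The difference was -5.72 for Itgam and -6.74 for Mrc1.

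Most chemokines and cytokines of the list were lower, whereas Cxcl13, which the list does not hold, was higher (2.33, above). Of 22 chemokines and cytokines, 17 had a negative difference, 16 without overlap, beside 17.9% of all features, with a median of -0.69 (-1.02 against scramble 1 and -0.48 against scramble 2). Ccl9 was at -5.44 and -4.55 with shTAZ and 0.87 and -0.87 with scramble. Ccl3, which draws monocytes, was at -4.76 and -4.28 with shTAZ and 1.08 and -1.08 with scramble. Ccl12 (-4.36), Ccl6 (-4.31) and Tnf (-2.41) followed. Chemokines that fibroblasts also make were nearer to scramble: Ccl2 had a difference of -0.69, Cxcl1 of -0.20, and Cxcl12 of 0.26, with overlap for Cxcl12. The macrophage markers were lower in the same arrays, and their part in these values was not tested.

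Lysosome and osteoclast genes were mixed, with 9 of 13 lower, beside 41.0% of all features. Atp6v0d2, a proton pump subunit of macrophages and osteoclasts, was at -3.99 and -3.83 with shTAZ and 1.32 and -1.32 with scramble, and the glycoprotein Gpnmb at -2.82 and -2.43 with shTAZ and 0.81 and -0.81 with scramble. The proteases Ctsb (-1.01) and Lgmn (-1.17) were nearer to 2-fold lower, as was Mmp9 (-0.87), whose scramble arrays agreed within 0.022. Among prostaglandin genes, 6 of 10 were lower, beside the same 41.0%. Ptgs2, the inducible cyclooxygenase, was at -1.44 and -1.33 with shTAZ and 0.30 and -0.30 with scramble, and the prostaglandin-degrading Hpgd at -2.98 and -3.07 with shTAZ and 1.28 and -1.28 with scramble. Ptgds, a prostaglandin D synthase, was at -2.57 and -1.55 with shTAZ and -0.87 and 0.87 with scramble, so that here scramble 2, not scramble 1, was the higher array. The receptors Ptger2 (-0.81) and Ptger4 (-0.96) were lower without overlap. The fatty acid transporter Cd36, which macrophages and fat cells express, was at -4.78 and -3.57 with shTAZ and 0.65 and -0.65 with scramble. The macrophage markers were lower in the same arrays, 22 of 22 with a median of -4.79, and their part in the lysosome, prostaglandin and Cd36 values was not tested.

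Interferon-stimulated genes, switched on in most cell types by type I interferon, were mostly lower with shTAZ. Of 13 measured, 12 had a negative difference, 9 without overlap and 7 at an unadjusted p under 0.05, beside 17.9% and 5.71% of all features. The median was -0.89, with -0.40 against scramble 1 and -0.97 against scramble 2. Oas1a, which senses double-stranded RNA, was at -1.50 and -1.48 with shTAZ and 0.37 and -0.37 with scramble (-1.49, SE 0.25, adjusted p = 0.114 from limma). Mx1, an antiviral GTPase, was at -1.33 and -1.41 with shTAZ and 0.40 and -0.40 with scramble. Rsad2, viperin, was at -0.95 and -1.36 with shTAZ and -0.50 and 0.50 with scramble. All 3 were lower in both shTAZ arrays, but Oas1a and Mx1 were higher in scramble 1 and Rsad2 in scramble 2. Irf7, the factor that amplifies the interferon response, had a difference of -0.70 with close scramble arrays at -0.061 and 0.061. Ifit1 (-0.90) and Ifit3 (-0.98) overlapped, since scramble 1 was as low as the shTAZ arrays. All of these cultures had received retrovirus and lentivirus. The macrophage markers were lower in the same shTAZ arrays, 22 of 22 with a median of -4.79, and their part in the interferon-stimulated genes was not tested.

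The interferon-stimulated response element was searched as GAAANNGAAA, on both strands, in the same windows. It was present in 6 of 10 interferon-stimulated genes with a listed start (60%), namely Bst2, Ifit1, Ifit3, Isg15, Oas1a and Rsad2, against 3.47% of tested genes. Oas1a, at chr5:120907526-120907775 (minus strand), and Rsad2, at chr12:26456453-26456702 (minus strand), are shown because they had the lowest values among those 6, with the matches in capitals.
Oas1a: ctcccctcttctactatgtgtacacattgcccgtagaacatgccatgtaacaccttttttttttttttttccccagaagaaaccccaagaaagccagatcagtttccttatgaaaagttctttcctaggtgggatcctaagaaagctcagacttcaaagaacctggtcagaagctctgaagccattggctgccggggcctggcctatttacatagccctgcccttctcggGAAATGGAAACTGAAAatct
Rsad2: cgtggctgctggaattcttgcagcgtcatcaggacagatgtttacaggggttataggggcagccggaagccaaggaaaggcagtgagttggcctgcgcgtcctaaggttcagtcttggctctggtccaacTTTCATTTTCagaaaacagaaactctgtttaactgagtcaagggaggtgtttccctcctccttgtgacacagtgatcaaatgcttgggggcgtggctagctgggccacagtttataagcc
In Oas1a a pair of overlapping matches begins 20 and 14 bases before the start, and in Rsad2 a single match begins 120 bases before it.

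A smaller set of genes was lower with shTAZ while the scramble arrays lay close together. Of the 432 features that were 2-fold lower, 28 had scramble arrays less than 0.5 apart on the log2 scale, against 33 of the 57 that were 2-fold higher. Htr2b, the serotonin receptor 2B, was at -1.60 and -1.44 with shTAZ and -0.0064 and 0.0064 with scramble (-1.52, SE 0.14, adjusted p = 0.0568 from limma). Pla2g4a, the cytosolic phospholipase A2 that releases arachidonic acid, was at -1.27 and -1.44 with shTAZ and -0.065 and 0.065 with scramble (-1.35, SE 0.11, adjusted p = 0.0568 from limma). Vip, the neuropeptide vasoactive intestinal peptide, was at -1.22 and -1.22 with shTAZ and -0.0099 and 0.0099 with scramble. Phf11d was at -1.37 and -1.53 with shTAZ and -0.10 and 0.10 with scramble. In these 4 genes the difference from scramble 1 and from scramble 2 was nearly the same, for Htr2b -1.51 and -1.53.

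Tnfrsf23, a decoy receptor for TRAIL in the mouse, was at -1.06 and -1.02 with shTAZ and 0.051 and -0.051 with scramble. Cd80, a costimulatory ligand of antigen-presenting cells, was at -1.28 and -1.32 with shTAZ and -0.057 and 0.057 with scramble. S100a4, which the fibroblast marker list holds, was at -0.95 and -0.87 with shTAZ and 0.036 and -0.036 with scramble (-0.91, SE 0.10, adjusted p = 0.0778 from limma). Fabp4, a fatty acid carrier of fat cells and macrophages, was at -1.43 and -1.54 with shTAZ, 0.25 and 1.15 with shYAP and 0.045 and -0.045 with scramble. It was lower in both shTAZ arrays and higher in both shYAP arrays than in scramble, and the difference of shTAZ from shYAP was -2.19 (SE 0.27, adjusted p = 0.117 from limma). The other genes with the smallest p-values were Pgap6, at -3.29 and -2.87 with shTAZ and 0.31 and -0.31 with scramble, the folate receptor of macrophages Folr2 (-3.51), the macrophage lipid-binding secreted protein Cd5l (-3.34) and the ubiquitin ligase Rnf128 (-2.39). The macrophage markers were lower in the same shTAZ arrays (median -4.79 over 22 markers). Their part in the lower genes described here and just above was not tested.

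YAP/TAZ target genes differed little in the median. Of 23 measured, 16 had a negative difference, 9 were lower without overlap, 3 had an unadjusted p under 0.05, and 0 were higher without overlap. Over all features, 17.9% were lower without overlap, 5.71% were lower at that p and 28.6% were higher without overlap. The median was -0.084, and it was 0.032 against scramble 1 and -0.21 against scramble 2, so its sign depended on the control array. The mean over the list was -0.24, and Itgb2 was the only member at least 2-fold from scramble. Itgb2, the beta 2 integrin of leukocytes that the study also counts as a target gene, was at -3.37 and -3.48 with shTAZ and 1.0 and -1.0 with scramble, a difference of -3.42 within the range of the macrophage markers. Myof, myoferlin, which repairs membranes, was at -0.66 and -0.73 with shTAZ and -0.07 and 0.07 with scramble (-0.70, SE 0.11, adjusted p = 0.106 from limma). Gadd45a, a stress response gene, was at -0.34 and -0.33 with shTAZ and 0.10 and -0.10 with scramble. Ccn2, connective tissue growth factor, was at -0.14 and -0.41 with shTAZ and -0.09 and 0.09 with scramble, a difference of -0.28 (SE 0.13, adjusted p = 0.408 from limma). Ankrd1 (-0.071), Ccn1 (-0.029) and Axl (0.042) were within 0.1 of scramble.

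Set against shYAP, 17 of the 23 target genes were higher with shTAZ, 11 without overlap, and 6 were lower without overlap. Over all features, 20.6% were higher and 23.6% lower without overlap. The median over the target genes was 0.12. Ankrd1, a cardiac and stretch-responsive ankyrin repeat gene, was at -0.051 and -0.091 with shTAZ and -0.73 and -0.97 with shYAP. Ccn2 was at -0.14 and -0.41 with shTAZ and -0.64 and -0.69 with shYAP. Both genes were separated between the knockdowns without passing the adjusted threshold.

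Matrix and crosslinking genes, a chief product of fibroblasts, were mostly above the scramble mean. Of 29 measured, 24 had a positive difference, 17 without overlap, and 8 had an unadjusted p under 0.05, beside 28.6% and 8.68% of all features. The median was 0.22, but 0.39 against scramble 1 and 0.051 against scramble 2, so the matrix genes lay close to scramble 2. Col1a1, the main collagen chain, was at 0.19 and 0.22 with shTAZ and -0.14 and 0.14 with scramble (0.21, SE 0.12, adjusted p = 0.504 from limma). Col15a1 (0.69), the lysyl oxidase Loxl1 (0.52), elastin (Eln, 0.51) and fibulin 5 (Fbln5, 0.42) had the largest positive differences. Postn, the matricellular periostin, was at -0.21 and -0.91 with shTAZ and -0.12 and 0.12 with scramble. Among fibroblast markers, the median was 0.14 over 13 genes, with 0.31 against scramble 1 and -0.036 against scramble 2. Thy1, a surface marker of the starting fibroblasts, was at -0.12 and -0.49 with shTAZ and -0.26 and 0.26 with scramble, and overlapped. Smooth muscle and myofibroblast genes had a median of 0.17, with Myh11 (0.85) and Mylk (0.68) highest. Compared with shYAP, 13 of 13 were higher with shTAZ, 10 of them without overlap, beside 20.6% of all features.

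Other gene groups gave smaller differences. Cartilage and bone genes were all above the scramble mean, 10 of 10, with 6 without overlap, beside 28.6% of all features, and a median of 0.33. Alpl, the bone alkaline phosphatase, was at 0.66 and 1.15 with shTAZ and -0.15 and 0.15 with scramble. Respiratory chain genes had a positive difference in 16 of 17, beside 59.0% of all features, with a median of 0.14. All 17 were lower than with shYAP, 12 of them without overlap, beside 23.6% of all features. Cox7a1, the muscle form of a cytochrome oxidase subunit, was at 0.61 and 0.75 with shTAZ and -0.0065 and 0.0065 with scramble. Cell cycle genes had a negative difference in 21 of 27, 13 without overlap, beside 17.9% of all features, with a median of -0.13. Only 1 of the 27 was lower at an unadjusted p under 0.05, near the 5.71% of all features. Pcna, the sliding clamp of replication, was at -0.49 and -0.51 with shTAZ and 0.14 and -0.14 with scramble. The endothelial receptors Kdr (0.70) and Tek (0.86) were higher in both shTAZ arrays, while the endothelial list as a whole had a median of 0.017. Housekeeping genes had a median of -0.036, and the skeletal muscle list of 0.21.

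Signalling and adhesion lists were mixed, with single members apart from scramble. In the Wnt pathway list, 15 of 18 genes had a positive difference, beside 59.0% of all features. The median was 0.14, though 0.031 against scramble 2. The Wnt receptor Fzd4 was at 0.89 and 1.12 with shTAZ and -0.22 and 0.22 with scramble, and Nkd1, a Wnt feedback inhibitor, at 0.63 and 0.60 with shTAZ and -0.22 and 0.22 with scramble. Both lay above both scramble arrays, whereas Rspo3, a secreted amplifier of Wnt signals, was at -0.28 and -0.66 with shTAZ and -0.23 and 0.23 with scramble, just below them. In the TGF-beta list the median was 0.011 over 17 genes. Its activin subunit Inhba was at -0.65 and -0.66 with shTAZ and 0.019 and -0.019 with scramble, while the ligand Bmp4 was at 0.61 and 0.67 with shTAZ and -0.27 and 0.27 with scramble, and Smad6, an inhibitor of BMP signals, at 0.73 and 0.66 with shTAZ and -0.15 and 0.15 with scramble. Inhba was thus lower, and Bmp4 and Smad6 higher, without overlap. Among integrins, Itgb3, the beta subunit of the vitronectin receptor, was at -0.73 and -1.11 with shTAZ and 0.013 and -0.013 with scramble, and Itga5 of the fibronectin receptor at -0.40 and -0.45 with shTAZ and -0.01 and 0.01 with scramble. Itga8, which binds nephronectin, was at 0.49 and 0.57 with shTAZ and -0.12 and 0.12 with scramble, above both scramble arrays. No member of these 3 lists passed the adjusted threshold.

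MHC class II and antigen presentation genes did not share the size of the macrophage markers, with a median of -0.03 over 8 genes. Cd86, a costimulatory ligand, was at -1.82 and -2.43 with shTAZ, -3.52 against scramble 1 and -0.73 against scramble 2. H2-Ab1, a class II chain, was at 0.10 and 0.18 with shTAZ and -0.085 and 0.085 with scramble. The ratios do not show whether genes of this list were near background. In glycolysis genes the median was 0.11 over 15, and the aldolase Aldoc was at 0.82 and 0.76 with shTAZ and 0.085 and -0.085 with scramble.

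**Figure D5:**
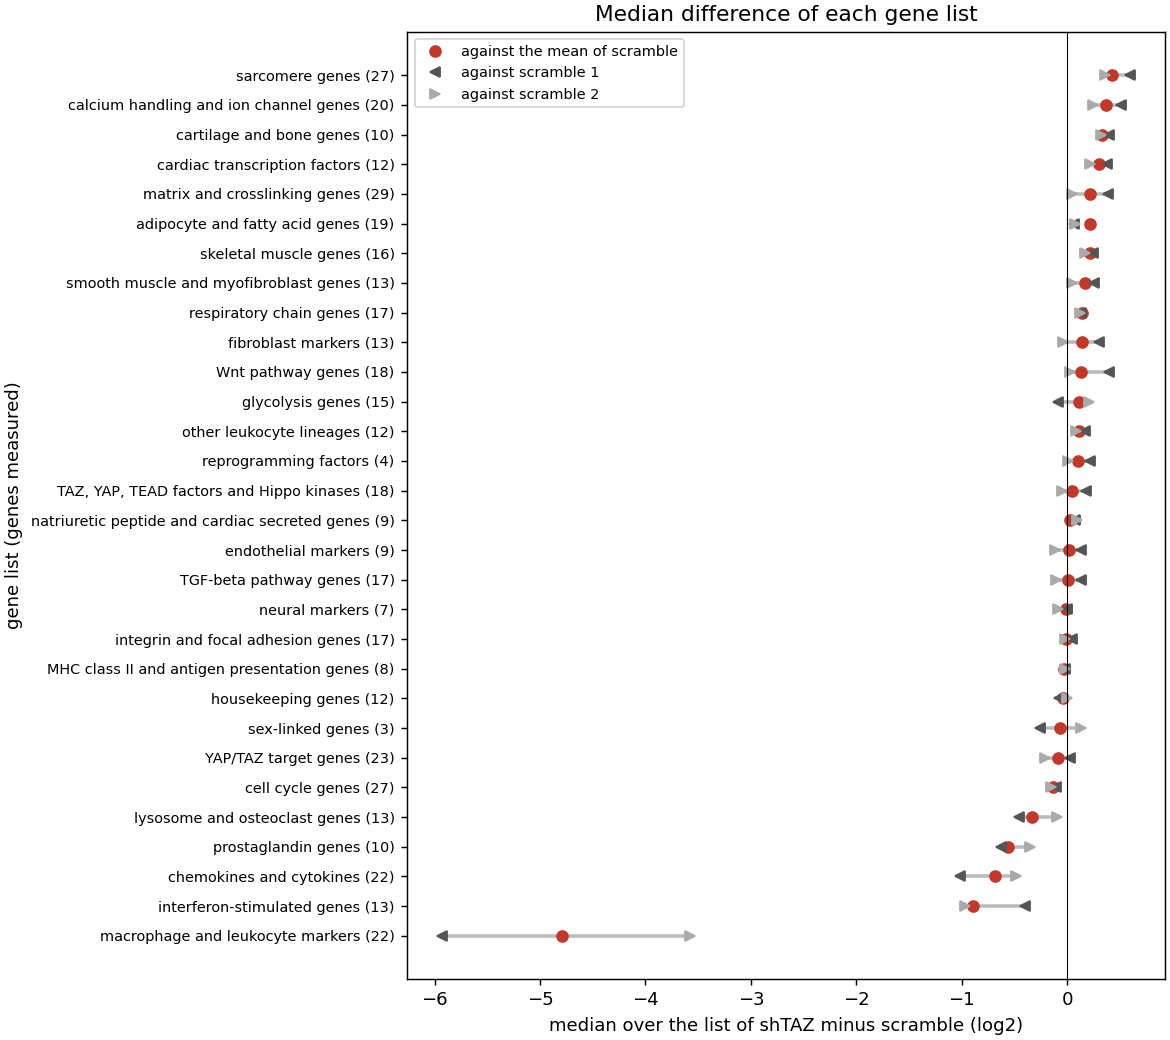
Median over each gene list (vertical axis, with the number of genes measured) of the log2 difference of shTAZ from scramble (horizontal axis), against the mean of scramble (circles), scramble 1 and scramble 2 (triangles). Macrophage and leukocyte markers stand at -4.79, the sarcomere list at 0.43, and the matrix list spans 0.051 to 0.39 between control arrays.

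Set directly against shYAP, with no scramble array in the difference, 3 features (0.0136%) rose and 7 (0.0316%) fell with shTAZ past the adjusted threshold of limma. Chrna3, a subunit of the ganglionic nicotinic acetylcholine receptor, was at 0.22 and 0.46 with shTAZ and 3.16 and 3.17 with shYAP, and Chrnb4, its partner subunit, at 0.45 and 0.53 with shTAZ and 2.50 and 2.30 with shYAP. In both genes the shTAZ arrays lay near scramble and the shYAP arrays far above it. Lims2, the focal adhesion adaptor PINCH-2, was at 0.65 and 0.47 with shTAZ and -0.83 and -0.96 with shYAP, on either side of scramble at -0.064 and 0.064. None of the 10 features passed with any 1 shTAZ or shYAP array left out.

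The soft gel offered a comparison that shares no array with the knockdown, since GHMT/8 kPa was given as a ratio to the mean of GHMT/126 kPa without shRNA. Of the 222 features 2-fold lower with shTAZ against each scramble array, 187 (84.2%) were below 0 in both 8 kPa arrays, where 29.1% of all features were. Of the 25 higher ones, 15 (60.0%) were above 0 in both 8 kPa arrays, where 38.6% of all features were. Macrophage markers were lower on 8 kPa in 22 of 22, by a median of -1.32. Sarcomere genes had a median of -0.065 on 8 kPa minus 126 kPa, with 11 of 27 higher, and Pln a difference of 0.14. Macrophage markers were therefore lower in both comparisons, whereas the sarcomere list median lay above the control in the shTAZ arrays and near it on the soft gel. The difference between these comparisons was not tested, and 8 kPa was set against the mean of 126 kPa only, not against each 126 kPa array. The study itself, from genes at least 2-fold higher on 8 kPa, reported enrichment for cardiac function. It also reported higher Tnnt2 and Adrb1 on 8 kPa by qRT-PCR, and those values are not part of these arrays.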

How the data were processed

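RNA of the GHMT/shTAZ, GHMT/shYAP and GHMT/Scramble cultures was hybridised to Clariom S Mouse arrays, and the submitters' processing notes name Affymetrix Expression Console 1.4. The authors deposited log2 ratios per feature, which the values show to be relative to the mean of the scramble arrays. The log2 base follows from that software and is not given with the values, and the normalisation method is not given in the sources used here. No signal level accompanies the ratios, so no dim feature was removed.

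Differences were fitted with limma 3.58.1 in R 4.3.3 to the 6 shRNA arrays over 22122 features with a value in all 6, leaving 3 residual degrees of freedom, and p-values were adjusted over all features (Benjamini-Hochberg). Named genes were those of the study's question, the 12 largest differences per direction that were 2-fold from each scramble array, the 10 smallest p-values per direction and up to 5 members of each of 30 lists. The 12 largest also had to show no overlap between the groups. Other list members were named for their role, with their values known. The members and lists were chosen with earlier results of these data known. The alternatives were other arrays in the fit, a replicate block, array weights, robust variances, centring, other fold rules and features, and each array left out. Promoters are RefSeq sequence of GRCm38.p6. Precision is limited by 2 arrays per group.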

Additional observations from a re-analysis of the deposited data

Results flagged for a closer look

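The difference between the knockdowns themselves passed limma's adjusted threshold for 10 features, each a test of shTAZ minus shYAP. Chrna3 differed by -2.82 (SE 0.12, adjusted p = 0.00396) and Chrnb4, the other nicotinic receptor subunit, by -1.91 (SE 0.16, adjusted p = 0.0276). Mup19 was -2.63 and Mup22 -1.91, and 3 features with no gene symbol were -1.84, -2.01 and -2.08. Major urinary protein genes are near-identical copies, and the arrays may not separate them. The higher features were Prrg4 at 1.79, Lims2 at 1.45 and the sulfotransferase Sult5a1 at 1.24. Prrg4 was at -0.024 and -0.15 with shTAZ, -1.81 and -1.93 with shYAP and -0.18 and 0.18 with scramble, so its shTAZ arrays were near the control. None of the 10 passed when any 1 shTAZ or shYAP array was left out. With 2 arrays per group, no group was large enough to test for a sample that stood apart.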

How the results depend on the processing

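In limma, features past the adjusted threshold numbered 115 higher and 277 lower with all 14 arrays in 1 fit, 3 and 6 with robust variances, and 33 and 25 without features 2-fold apart between the scramble arrays, against 0 and 0. Leaving out 1 array gave 0 to 646 higher and 0 to 986 lower, and at an unadjusted p under 0.05 gave 987 to 2771 higher and 705 to 1851 lower. Between shTAZ and shYAP the counts were 23 higher and 17 lower with 14 arrays, 14 and 13 with array weights, 18 and 17 without features 2-fold apart between the scramble arrays, 4 lower with 1 gene symbol only, and 0 to 0 in each direction with 1 array left out.

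At 1.5-fold, 434 features were higher and 835 lower, and 196 and 409 against each scramble array. With all 4 pairs of arrays past 2-fold, 11 were higher and 192 lower, and without features 2-fold apart between the scramble arrays 68 were lower, 27 of them against each array. Leaving out 1 array gave 38 to 152 higher and 278 to 682 lower, and 22 to 152 and 219 to 682 against each scramble array left. With 1 array left out, medians ran between -5.93 and -3.58 for macrophage markers, 0.36 and 0.60 for sarcomere genes and 0.051 and 0.39 for matrix genes. For YAP/TAZ targets the median ran from -0.21 without scramble 1 to 0.032 without scramble 2, a change of sign, and the mean over the list was -0.24. Wwtr1 kept its sign in all alternatives. Of 141 other named genes, 71 passed the threshold with all 14 arrays, 38 without scramble 1 and 97 without scramble 2, and 10 with small or overlapping differences changed sign when 1 array was left out, over -0.10 to 0.19 for Axl, -0.16 to 0.10 for Ccn1, -0.054 to 0.27 for Csf1, -0.0028 to 0.52 for Cxcl12, -1.90 to 0.10 for Ifit1, -0.022 to 0.20 for Il34, -1.01 to 0.71 for Kcnj2, -0.19 to 0.24 for Myl3, -0.20 to 0.019 for Nkx2-5 and -0.16 to 0.16 for Tbx5. Centring the arrays turned Myl3 (-0.017) and Tbx5 (-0.039). The cause of these changes was not tested. Without a signal level, the share of features near background is unknown, and with 2 arrays per group each value leans on single arrays.

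With the replicate number as a block, 0 features were higher and 0 lower than scramble past the threshold, and against shYAP 0 were higher and 1 lower. Deviations of same-numbered arrays correlated at -0.023 for shTAZ and scramble, -0.00075 for shTAZ and shYAP, and 0.20 for scramble and shYAP. With 2 numbers, and no label that ties them to a shared batch, the arrays were not treated as paired.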
